A study of Homo sapiens with 6 samples.

Results

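The 45 genes described here encode the cytosolic translation factors other than eIF2 and its exchange factor eIF2B, chosen by gene name from 60612 genes in the deposited tables. They fall into 6 groups by role: 3 eIF1 genes, 13 eIF3 subunits, 14 eIF4 factors and poly(A)-binding proteins, 4 genes of the eIF5, eIF5B, eIF6 and eIF5A group, 7 elongation genes, and 4 genes of termination and re-initiation. All 45 names matched a gene and all 45 passed the filter on low counts. RNA was sequenced from 6 libraries labelled HepG2, an established human line from a liver tumour, with 3 libraries of genotype ABCF1 and 3 of genotype NC-1. The series title speaks of ABCF1 overexpression and its design text of stably transgenic lines with lysine-to-arginine forms of ABCF1, but the sample labels do not say which form a library carries, what NC-1 stands for, or whether a line is 1 clone. The labels do not state whether replicates were grown as separate cultures, and p-values then reflect only the spread among these 6 libraries, which could be technical.

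Translation starts when the small ribosomal subunit, carrying eIF1, eIF1A, eIF3, eIF5 and the initiator tRNA bound to eIF2, is brought to a capped mRNA by the eIF4 factors and scans to a start codon. eIF5B then joins the large subunit, eEF1A and eEF2 drive elongation, and eRF1 with eRF3 ends it at a stop codon. ABCF1 is a ribosome-associated ATPase that takes part in initiation, and these genes are therefore the machinery it works beside. Many messages for elongation factors, some eIF3 subunits and ribosomal proteins start with a C followed by a run of pyrimidines, the 5' terminal oligopyrimidine (TOP) motif, through which mTOR signalling and LARP1 control their translation.

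The ABCF1 transcript went against the series title, which speaks of overexpression. Its level in CPM (counts scaled to a library of 1000000, with TMM factors) was 102, 108 and 110 in the libraries labelled ABCF1, against 162, 159 and 155 in the NC-1 libraries, so every library labelled ABCF1 lay below every NC-1 library. The log2 fold change, ABCF1 over NC-1 here and throughout, was -0.57 (SE 0.08), with an adjusted p of 0.25 in edgeR's quasi-likelihood test, 6.1e-08 in the DESeq2 Wald test and 8.9e-04 in the edgeR fit with the library set described next. Total counts ran from 62323034 to 77394510 per library. Of 15 hepatocyte markers, 13 were under 1 RPKM (reads corrected for gene length and for sequencing depth) in all 6 libraries, ALB and AFP among them, while CPS1 was at 144 to 235 RPKM and HNF4A at 15.0 to 31.2 RPKM. The summed RPKM of that list was 163 to 255 in the libraries labelled ABCF1, against 182 to 252 in NC-1. Of 10 leukocyte, endothelial and fibroblast markers, 7 were under 1 RPKM in all libraries, PTPRC, CD3E and COL1A2 were at 0 in all of them, and the summed level was 26.6 to 32.2 RPKM against 21.2 to 31.7 RPKM. The near absence of ALB, AFP and the apolipoprotein transcripts goes against the HepG2 label, and the line is called here only by its label. Whether these marker levels had a part in the results was not tested. In bulk RNA, fewer cells of a kind and less RNA per cell cannot be told apart.

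ABCF1 replicate 3 and NC-1 replicate 2 stood apart from the other 4 libraries, with scores of 47.2 and 42.0 on the first principal component against -29.3 to -6.96. The side of that component is called the library set here. The results below are given for the labelled groups alone, then with the library set as a covariate, and then from the 4 libraries without this pair. The set was itself derived from these counts, and its p-values are therefore not from a design planned in advance.

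Between the labelled groups, no translation factor passed edgeR's test at an adjusted p of 0.05, and the adjusted p of the members ran from 0.25 to 0.99. The test called 0 genes higher and 0 lower over all 16545 genes, which is 0% in each direction. With no adjustment, 7 members were higher and 6 lower at p under 0.05, against 6.27% of all genes higher and 8.54% lower. The DESeq2 Wald test called EEF1A2 higher and EIF1AX and EIF5 lower, where it called 1.47% of all genes higher and 2.31% lower. In 8 of 45 members every library labelled ABCF1 lay above every NC-1 library and in 9 every one lay below, against 10.7% and 12.4% of all tested genes. The median log2 fold change of the 45 was 0.14, with 25 positive and 20 negative, against 0.00050 over all genes.

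With the library set as a covariate, edgeR called 18 of 45 translation factors higher and 8 lower, against 12.9% and 12.5% of all genes. The 18 were 5 elongation genes, 7 eIF3 subunits, 3 eIF4 factors, EIF5A, EIF6 and EIF1. The 8 lower genes were EIF1AX, EIF3A, EIF4E, EIF4G2, EIF4G3, EIF4EBP2, EIF5 and ETF1. In the 4 libraries without the pair that stood apart, 15 members were higher and 5 lower, against 5.68% and 5.1% of all genes. All 20 were among the 26, and EIF3G, EIF3L, EIF4A1, EIF4E, EIF4G3 and ETF1 were not called in the 4 libraries. Libraries labelled ABCF1 also carried more GC-rich transcripts than NC-1 libraries, as given at the end, and a fit with an offset for transcript length and GC content beside the library set called 12 members higher and 2 lower, against 5.02% and 1.68% of all genes.

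**Figure D1:**
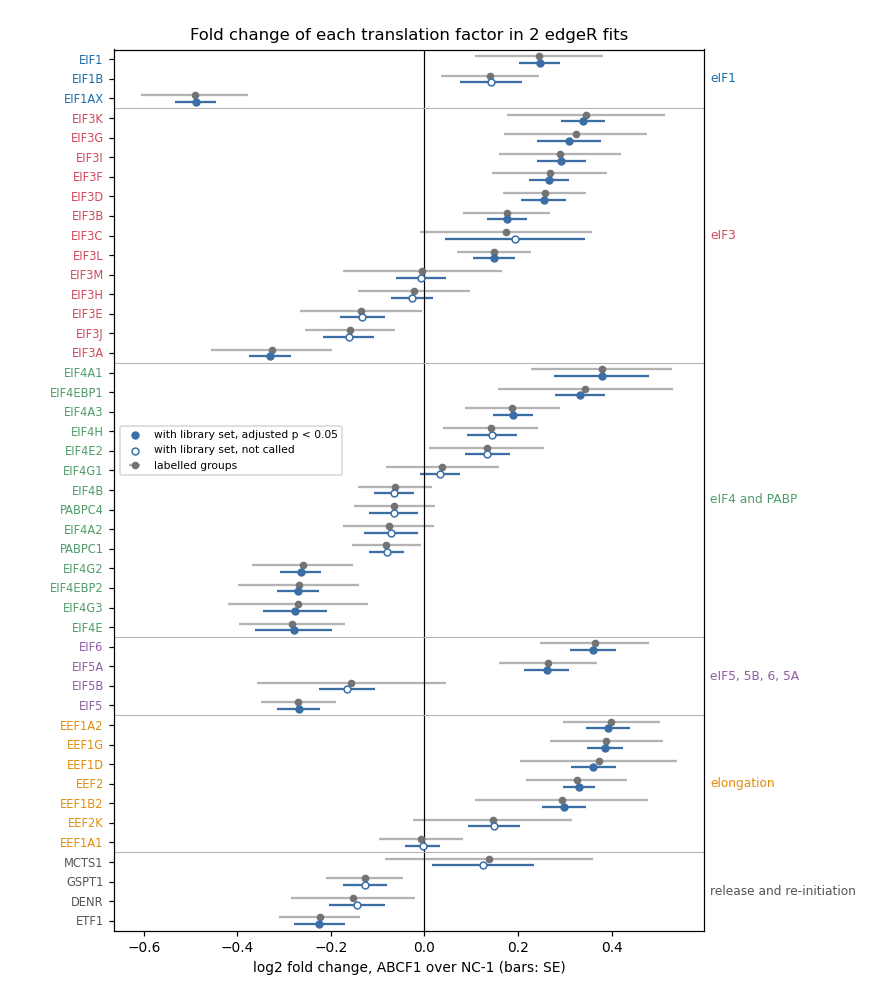
log2 fold change (ABCF1 over NC-1, x axis) of each of the 45 translation factors, grouped by role, with SE bars. Grey points are the fit of the labelled groups, blue points the fit with the library set, filled where the adjusted p was under 0.05. Point estimates of the fits lie close together, the SE is smaller with the library set, and 5 of 7 elongation genes are filled on the positive side.

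The role groups differed in their medians. Elongation genes had the highest, 0.33, with 6 of 7 positive. The eIF3 subunits were at a median of 0.17 with 8 of 13 positive, and the eIF1 genes 0.14 with 2 of 3 positive. The group of eIF5, eIF5B, eIF6 and eIF5A was at 0.054 with 2 of 4 positive. The eIF4 factors and poly(A)-binding proteins had a median of -0.064 with 6 of 14 positive, and the termination and re-initiation genes -0.14 with 1 of 4 positive. With the length and GC offset beside the library set, the medians of these last groups were 0.0023 and 0.077, and the elongation median was 0.23. Every library labelled ABCF1 lay above every NC-1 library in 3 of 7 elongation genes, and below in 0. For eIF3 these counts were 2 and 1 of 13, and for eIF4 factors and poly(A)-binding proteins 1 and 4 of 14. For the group with eIF5 they were 2 and 1 of 4, for eIF1 0 and 1 of 3, and for termination and re-initiation 0 and 2 of 4. The shares of all tested genes were 10.7% and 12.4%. These are descriptions of groups of 3 to 14 genes, with no test of the difference between groups.

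**Figure D2:**
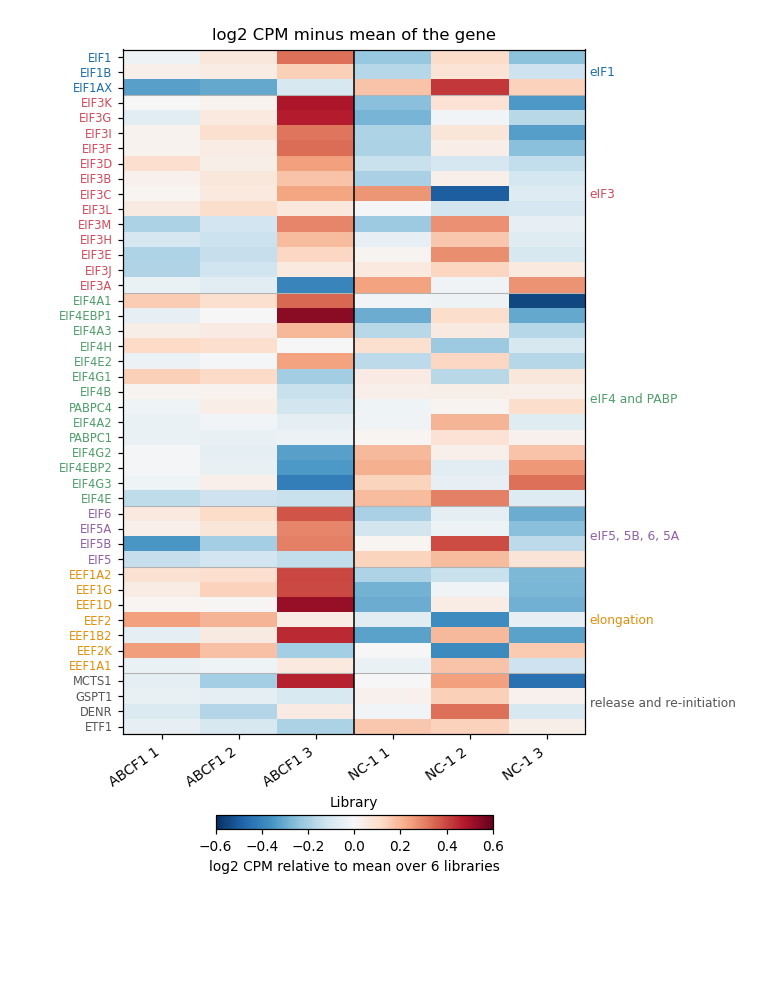
log2 CPM of each translation factor (rows, grouped by role) in each library (columns), relative to the mean of that gene over 6 libraries. ABCF1 replicate 3 holds the highest value for 19 of the 25 genes with a positive log2 fold change.

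The 7 elongation genes took 1.76% to 1.91% of all counts in each library, out of 2.88% to 3.05% for all 45 factors. By RPKM, the scale on which genes of different length can be compared, EEF1A1 was highest at 2310 ± 23.03 (SD, n = 3) in the libraries labelled ABCF1, against 2477 ± 177 in NC-1, followed by EEF2 at 1668 ± 172 and 1425 ± 200. EEF1A2 was at 1134 ± 106 and 922 ± 46.97, and EEF1G at 1073 ± 104 and 879 ± 76.4, so EEF1A2 and EEF1G, neighbours in the order, did not differ beyond their spread. The lowest of all 45 were MCTS1, EIF4E and EIF3C, at means of 3.62, 5.03 and 6.60 RPKM over 6 libraries.

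**Figure D3:**
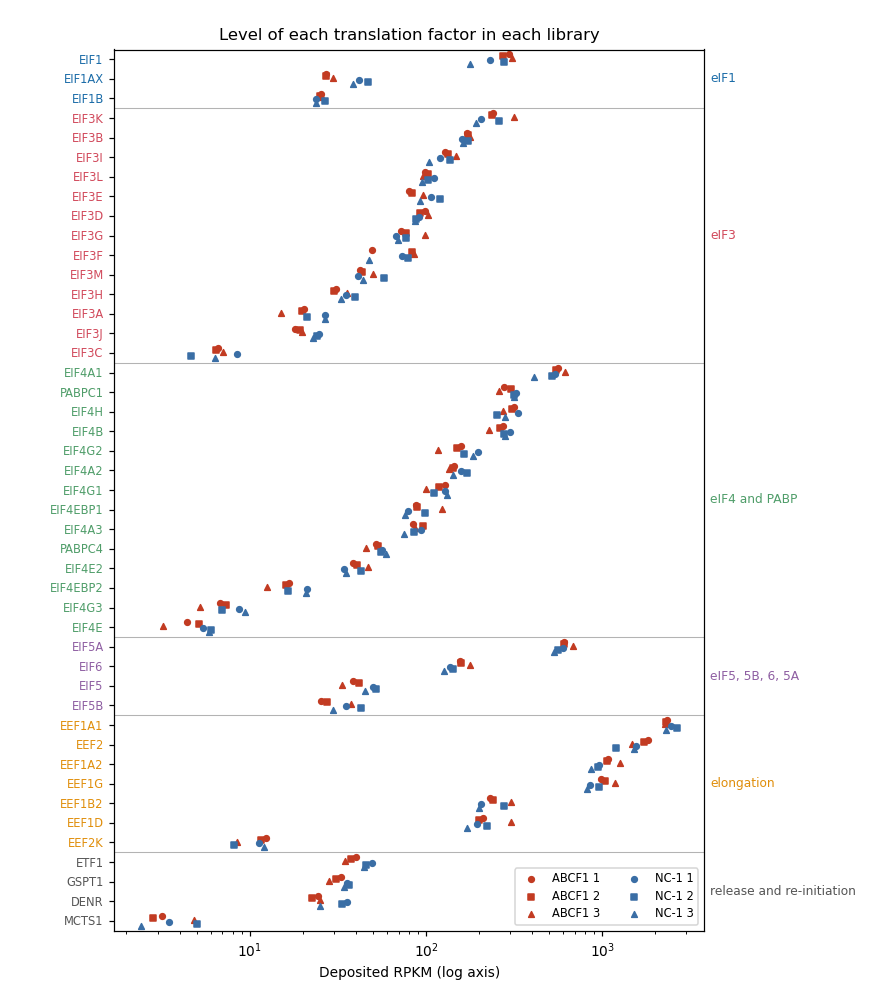
Deposited RPKM (x axis, log scale) of each translation factor in each library, red for libraries labelled ABCF1 and blue for NC-1, with the symbol giving the replicate. Levels run from EIF4E and MCTS1 at a few RPKM to EEF1A1 at a mean of 2393, and the libraries of 1 gene lie close together on this scale.

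EEF1A2 encodes a second form of eEF1A, the factor that delivers aminoacyl-tRNA to the ribosome, known in normal tissue from muscle and neurons. Its CPM was 2137, 2148 and 2643 in the libraries labelled ABCF1, against 1761, 1827 and 1664 in NC-1. The groups did not overlap, ABCF1 replicate 3 was the highest, and the ratio of means was 1.32. The log2 fold change was 0.40 (SE 0.10, edgeR adjusted p = 0.25), and 0.39 (SE 0.05, edgeR adjusted p = 0.0010) with the library set.

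EEF1A1, the common form of eEF1A, was at 8757, 8842 and 9371 CPM in the libraries labelled ABCF1, against 8751, 10123 and 8244 CPM in NC-1. The groups overlapped, and the NC-1 libraries held the highest and the lowest value. Its log2 fold change was -0.0078 (SE 0.09, edgeR adjusted p = 0.98), which turned to 0.051 in the 4 libraries and 0.074 with the library set and the length and GC offset. The 39 annotated EEF1A1 pseudogenes took 0.67% to 0.96% as many counts as EEF1A1, so the split of reads between near-identical copies is uncertain.

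EEF2 encodes the translocase that moves the ribosome along by a codon. It was at 6343, 6145 and 5510 CPM in the libraries labelled ABCF1, against 5100, 4109 and 5157 CPM in NC-1, with no overlap, and the libraries that stood apart were the lowest of their groups. The log2 fold change was 0.33 (SE 0.11, edgeR adjusted p = 0.27), and 0.33 (SE 0.03, edgeR adjusted p = 9.1e-04) with the library set. EEF2K, the kinase that inhibits eEF2, overlapped between groups (0.15, SE 0.17) and was called only with both the library set and the offset (0.20, edgeR adjusted p = 0.039).

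EEF1G, EEF1B2 and EEF1D are subunits of eEF1B, the complex that reloads eEF1A with GTP. EEF1G was at 1590, 1702 and 2032 CPM in the libraries labelled ABCF1 against 1269, 1520 and 1277 CPM in NC-1. The groups did not overlap, although ABCF1 replicate 1 lay close to NC-1 replicate 2. The log2 fold changes of EEF1G, EEF1B2 and EEF1D were 0.39 (SE 0.12), 0.29 (SE 0.18) and 0.37 (SE 0.17), and EEF1B2 and EEF1D overlapped between groups. All 3 were called higher with the library set, at 0.39, 0.30 and 0.36 (edgeR adjusted p of 9.1e-04, 0.0024 and 0.0014). Leaving out ABCF1 replicate 3 took EEF1B2 from 0.29 to 0.13 and EEF1D from 0.37 to 0.19 in the fit of labelled groups, and leaving out NC-1 replicate 2 took EEF1B2 to 0.49.

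The annotated start of 9 of the 35 members with an entry in the RefSeq promoter table (GRCh38.p14) carried a TOP-like tract, searched on the transcribed strand as a C at the first base followed by at least 4 bases that are C or T. That is 25.7% of those members, against 7.21% of tested genes with a start. Counted by start, it was 9 of the 50 starts of these members, against 4.07% of all 35116 starts in the table. The 9 starts are shown because they include the start of EEF1A1, whose groups overlapped, beside those of EEF2 and EEF1B2, which were called with the library set. Each line gives 10 bases before the start and 20 from it, 5' to 3', with the tract in capitals.
EEF1A1, chr6:73521013-73521042, minus strand: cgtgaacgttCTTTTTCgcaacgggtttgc
EEF2, chr19:3985444-3985473, minus strand: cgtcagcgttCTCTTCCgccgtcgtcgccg
EEF1B2, chr2:206159885-206159914, plus strand: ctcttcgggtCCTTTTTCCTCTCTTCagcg
EIF3D, chr22:36529147-36529176, minus strand: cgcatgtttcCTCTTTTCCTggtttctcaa
EIF3F, chr11:7987327-7987356, plus strand: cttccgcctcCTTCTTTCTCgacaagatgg
EIF3K, chr19:38619178-38619207, plus strand: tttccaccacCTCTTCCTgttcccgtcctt
EIF3M, chr11:32583821-32583850, plus strand: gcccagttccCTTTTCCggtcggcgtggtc
EIF4A2, chr3:186783567-186783596, plus strand: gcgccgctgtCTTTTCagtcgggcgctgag
EIF4B, chr12:53006446-53006475, plus strand: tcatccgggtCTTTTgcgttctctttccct

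The starts of EEF1G, EIF1, EIF1AX and EIF4A1, which hold no such tract, are shown for contrast, with a single capital at the first base.
EEF1G, chr11:62573872-62573901, minus strand: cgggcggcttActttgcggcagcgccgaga
EIF1, chr17:41688875-41688904, plus strand: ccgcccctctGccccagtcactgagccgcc
EIF1AX, chrX:20141819-20141848, minus strand: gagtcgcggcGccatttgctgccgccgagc
EIF4A1, chr17:7572815-7572844, plus strand: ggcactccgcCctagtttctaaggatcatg

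The median log2 fold change was 0.26 for members with a tract, 5 of 9 of them positive, from -0.076 (EIF4A2) to 0.35 (EIF3K). The 26 members with a start and no tract had a median of 0.14 with 15 positive, from -0.49 to 0.39. Over all tested genes the medians were 0.062 for the 800 with a tract and -0.0050 for the 10297 without. With the library set, 5 of the 9 were called higher and 0 lower, against 205 higher and 105 lower of the 800 tested genes with a tract. Of the 26 members with none, 8 were higher and 7 lower, against 1512 and 1610 of 10297 genes. With the offset added, calls were 5 higher and 0 lower of the 9, and 5 higher and 1 lower of the 26. Among the 800 tested genes with a tract they were then 116 higher and 12 lower, and among the 10297 without, 554 and 214. A match is only a description of the letters at an annotated start, and several genes have more than 1 start. EEF1A2, EEF1D, EIF3A, EIF3E, EIF3G, EIF3H, EIF3L, EIF4EBP1, PABPC1 and PABPC4 have no entry in the promoter table used here.

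In the eIF1 group, the scanning factors went in opposite directions. EIF1 encodes the factor that guards against initiation at wrong codons. Its CPM was 422, 452 and 541 in the libraries labelled ABCF1, against 368, 464 and 363 in NC-1, so NC-1 replicate 2 lay within the other group. The log2 fold change was 0.24 (SE 0.14, edgeR adjusted p = 0.43) and was called higher with the library set at 0.25 (SE 0.04, edgeR adjusted p = 0.0036). Without ABCF1 replicate 3 it was 0.14, and without NC-1 replicate 2 it was 0.37.

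EIF1AX, on the X chromosome, encodes eIF1A, which helps the small subunit bind mRNA and scan. It was at 133, 134 and 156 CPM in the libraries labelled ABCF1, against 187, 224 and 183 CPM in NC-1, with no overlap. This was the largest change by fold among the 45 in the fit of labelled groups, with a log2 fold change of -0.49 (SE 0.11, edgeR adjusted p = 0.25). It was called lower with the library set (-0.49, SE 0.04, edgeR adjusted p = 8.9e-04), and was still called with the length and GC offset, though smaller (-0.21, edgeR adjusted p = 0.017). At 35.1% its transcript had the lowest GC content of the members. EIF1B, a close relative of EIF1, was at 27.8, 28.04 and 30.1 CPM against 24.2, 28.8 and 24.95 CPM. These ranges overlapped, and its fold change of 0.14 (SE 0.10) was not called in any of the fits.

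The eIF3 complex is the largest initiation factor and holds the small subunit apart from the large one while contacting eIF4G. With the library set, 7 of 13 subunits were called higher and 1 lower, against 12.9% and 12.5% of all genes. The higher ones were EIF3B, EIF3D, EIF3F, EIF3G, EIF3I, EIF3K and EIF3L, with log2 fold changes of 0.15 to 0.34, and the lower one was EIF3A. EIF3C, EIF3E, EIF3H, EIF3J and EIF3M were not called, with values of -0.16 to 0.19. With the length and GC offset added, 3 subunits (EIF3F, EIF3K and EIF3M) were called higher and 1 (EIF3A) lower. The shares of all genes were then 5.02% and 1.68%. The large core subunits EIF3A and EIF3B went opposite ways, but EIF3B was not called once the offset was added (0.079, edgeR adjusted p = 0.11). Their GC content was 43.2% and 56.0%. Without ABCF1 replicate 3, EIF3F went from 0.27 to 0.17 and EIF3G from 0.32 to 0.15 in the labelled groups.

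EIF3A, the scaffold of the complex, was at 151, 148 and 118 CPM in the libraries labelled ABCF1, against 183, 153 and 187 CPM in NC-1. Groups did not overlap, but the libraries that stood apart were the lowest of each group and NC-1 replicate 2 lay close to ABCF1 replicate 1. The log2 fold change was -0.33 (SE 0.13, edgeR adjusted p = 0.31), or -0.33 (SE 0.04, edgeR adjusted p = 0.0015) with the library set, -0.15 (edgeR adjusted p = 0.049) with the offset added, and -0.21 in the labelled groups without ABCF1 replicate 3.

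EIF3B, the other core scaffold, was at 568, 585 and 628 CPM against 488, 570 and 519 CPM. Its groups overlapped at ABCF1 replicate 1 and NC-1 replicate 2, and the log2 fold change was 0.18 (SE 0.09, edgeR adjusted p = 0.41). EIF3K, a small peripheral subunit, was at 199, 202 and 278 CPM against 167, 211 and 156 CPM. The value of ABCF1 replicate 3 stood well above the rest, and the log2 fold change of 0.35 (SE 0.17) was 0.17 without it.

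EIF3D, a subunit that can bind the mRNA cap itself, was at 206, 197 and 227 CPM in the libraries labelled ABCF1, against 175, 179 and 173 CPM in NC-1. The NC-1 libraries were nearly level and all lay below, with a log2 fold change of 0.26 (SE 0.09, edgeR adjusted p = 0.28) and 0.25 (SE 0.05, edgeR adjusted p = 0.0049) with the library set. EIF3L, chosen for naming after its values were seen, did not overlap either, at 300, 311 and 301 CPM against 286, 267 and 269 CPM. Its log2 fold change was 0.15 (SE 0.08) from counts and -0.054 on the log2(RPKM + 1) scale, so its direction depended on the table. EIF3I, a propeller-shaped core subunit, was at 208, 219 and 256 CPM against 180, 216 and 163 CPM. NC-1 replicate 2 lay among the libraries labelled ABCF1, and the log2 fold change was 0.29 (SE 0.13).

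EIF3J, a loosely bound subunit, was at 47.8, 49.9 and 56.4 CPM against 56.4, 59.3 and 56.4 CPM, with the ABCF1 replicate 3 value in the NC-1 range. It had a log2 fold change of -0.16 (SE 0.10, edgeR adjusted p = 0.47). SPG11 overlaps it on the opposite strand with 40.0% as many counts, and reads of overlapping genes cannot be told apart where strand is not used. EIF3C has a near-identical copy, EIF3CL, at 280 to 373 counts per library against 996 to 1894 for EIF3C, so the level of either is uncertain.

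The eIF4 factors bind the cap and unwind the leader. With the library set, EIF4A1, EIF4A3 and EIF4EBP1 were called higher and EIF4E, EIF4G2, EIF4G3 and EIF4EBP2 lower, and 7 of 14 were not called. EIF4A1, the main helicase of the cap complex, was at 1059, 1016 and 1207 CPM in the libraries labelled ABCF1, against 941, 930 and 652 CPM in NC-1. The groups did not overlap, and NC-1 replicate 3 was far below the rest. Its log2 fold change was 0.38 (SE 0.15, edgeR adjusted p = 0.32), and 0.23 without NC-1 replicate 3. The readthrough gene SENP3-EIF4A1, which contains EIF4A1 on the same strand, held 21550 counts in NC-1 replicate 3 against 4548 to 11295 in the other 5 libraries. With both genes summed, CPM was 1142, 1151 and 1329 against 1005, 1108 and 966, and the log2 ratio of the group means was 0.23.

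EIF4E encodes the cap-binding protein. It was at 30.4, 31.1 and 30.9 CPM in the libraries labelled ABCF1, against 38.6, 41.8 and 32.1 CPM in NC-1, so the groups did not overlap, with NC-1 replicate 3 close to the other group. Its log2 fold change was -0.28 (SE 0.11, edgeR adjusted p = 0.32), called lower with the library set (-0.28, SE 0.08, edgeR adjusted p = 0.031) and 0.0042 once the offset was added. EIF4E2, a cap-binding relative that acts in repression, had a log2 fold change of 0.13 (SE 0.12) and was called higher with the set and the offset only (0.18, edgeR adjusted p = 0.041). The eIF4E-binding repressors went opposite ways, with EIF4EBP1 at 0.34 (SE 0.19) and EIF4EBP2 at -0.27 (SE 0.13). Both overlapped between groups, and without ABCF1 replicate 3 their values were 0.14 and -0.16. With the library set and the offset they were 0.13 and -0.093 (edgeR adjusted p of 0.11 and 0.20), and neither was called. The GC content was 65.5% for EIF4EBP1 and 43.7% for EIF4EBP2.

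EIF4G2, a scaffold that lacks the part of eIF4G that binds eIF4E, was at 636, 615 and 510 CPM against 734, 654 and 722 CPM. Every library labelled ABCF1 lay below NC-1, and the log2 fold change was -0.26 (SE 0.11, edgeR adjusted p = 0.33), called lower with the library set (-0.26, SE 0.04, edgeR adjusted p = 0.0028) and -0.028 with the offset added. EIF4G1, the main scaffold, overlapped between groups at 0.038 (SE 0.12), and EIF4G3 was at -0.27 (SE 0.15). Without ABCF1 replicate 3, EIF4G2 was at -0.16 and EIF4G3 at -0.14, and without NC-1 replicate 3 EIF4G3 was at -0.17. EIF4A3, the helicase of the exon junction complex, was at 224, 227 and 252 CPM against 195, 228 and 195 CPM. NC-1 replicate 2 fell inside the other group, and EIF4A3 was called higher with the library set (0.19, SE 0.04, edgeR adjusted p = 0.010) and with the offset (0.26, edgeR adjusted p = 0.0058).

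PABPC1, the main cytoplasmic poly(A)-binding protein, was at 867, 864 and 871 CPM in the libraries labelled ABCF1, against 898, 949 and 907 CPM in NC-1. The groups did not overlap, yet the log2 fold change was -0.082 (SE 0.07, edgeR adjusted p = 0.64). EIF4B, a helicase cofactor, also lay below NC-1 in every library, by -0.063 (SE 0.08). EIF4A2, EIF4H and PABPC4 overlapped between groups, with log2 fold changes of -0.076, 0.14 and -0.064.

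In the group of eIF5, eIF5B, eIF6 and eIF5A, EIF5A and EIF6 were called higher with the library set, EIF5 lower, and EIF5B was not called. Over all genes that fit called 12.9% higher and 12.5% lower. EIF5A, which helps the ribosome through difficult peptide bonds and carries the amino acid hypusine, was at 806, 830 and 968 CPM against 731, 774 and 663 CPM. All libraries labelled ABCF1 were above NC-1, with a log2 fold change of 0.26 (SE 0.10, edgeR adjusted p = 0.31). EIF6, which keeps the large subunit from joining too early, was at 186, 193 and 232 CPM against 156, 172 and 145 CPM. It did not overlap either, and had a log2 fold change of 0.36 (SE 0.12, edgeR adjusted p = 0.27) and of 0.36 (SE 0.05, edgeR adjusted p = 0.0016) with the library set. With the offset added these became 0.068 and 0.16 (edgeR adjusted p of 0.34 and 0.051).

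EIF5 encodes the protein that makes eIF2 hydrolyse its GTP at a start codon. Its CPM was 219, 223 and 218 in the libraries labelled ABCF1, against 265, 276 and 255 in NC-1. Both groups were tight and separate, and the log2 fold change was -0.27 (SE 0.08, edgeR adjusted p = 0.26, DESeq2 adjusted p = 0.031), or -0.27 (SE 0.05, edgeR adjusted p = 0.0031) with the library set and -0.068 with the offset added. EIF5B, the GTPase that joins the subunits, was at 160, 177 and 251 CPM against 205, 267 and 182 CPM. Its highest values were in the libraries that stood apart, and the groups overlapped (-0.16, SE 0.20).

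Among termination and re-initiation genes, ETF1, which encodes eRF1 that reads stop codons, was at 166, 161 and 151 CPM in the libraries labelled ABCF1, against 192, 189 and 176 CPM in NC-1. The groups did not overlap, and the log2 fold change was -0.22 (SE 0.09, edgeR adjusted p = 0.31), called lower with the library set (-0.22, SE 0.05, edgeR adjusted p = 0.013). ETF1 was not called with the offset added (-0.10, edgeR adjusted p = 0.25) or in the 4 libraries (-0.17, edgeR adjusted p = 0.094). GSPT1, which encodes the release factor GTPase eRF3a, was at 231, 229 and 224 CPM against 242, 263 and 242 CPM. It did not overlap but was not called in any of the fits, at -0.13 (SE 0.08) in the labelled groups. MCTS1, which acts with DENR in re-initiation and ribosome recycling, was at 22.99, 20.8 and 32.9 CPM against 23.9, 28.3 and 17.5 CPM. Those ranges overlapped widely (0.14, SE 0.22), and DENR overlapped too (-0.15, SE 0.13).

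Ratios of related factors were also taken within each library. Taken from RPKM, the ratio EEF1A2/EEF1A1 was 0.46, 0.46 and 0.55 in the libraries labelled ABCF1, against 0.39, 0.35 and 0.38 in NC-1, with no overlap and a difference of 0.39 on the log2 scale. The ratio EIF4A2/EIF4A1 was 0.25, 0.26 and 0.22 against 0.29, 0.33 and 0.35, a difference of -0.40. For EIF4G2/EIF4G1 it was 1.23, 1.26 and 1.16 against 1.55, 1.49 and 1.40, and the difference was -0.28. EIF1B/EIF1, EIF4G3/EIF4G1 and EIF4E2/EIF4E did not overlap either, with differences of -0.35, -0.28 and 0.63. EIF4A3/EIF4A1, EIF4EBP2/EIF4EBP1 and PABPC4/PABPC1 overlapped between groups. In this design of 3 against 3, an exact two-sided permutation test cannot go below 0.1, which each of the 6 RPKM ratios without overlap reached. Taken from counts, the difference was -0.10 for EIF1B/EIF1 and 0.41 for EIF4E2/EIF4E. The groups of EIF1B/EIF1 overlapped on that scale, so the lack of overlap for this ratio was seen in RPKM only. In all 6 RPKM ratios without overlap, the gene relatively higher in the libraries labelled ABCF1 had the transcript of higher GC content. That content was 64.8% for EEF1A2 against 46.1% for EEF1A1, and 38.7% for EIF4A2 against 49.6% for EIF4A1. A ratio within a library does not remove a trend with GC content, and the part of that trend in these ratios was not tested.

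**Figure D4:**
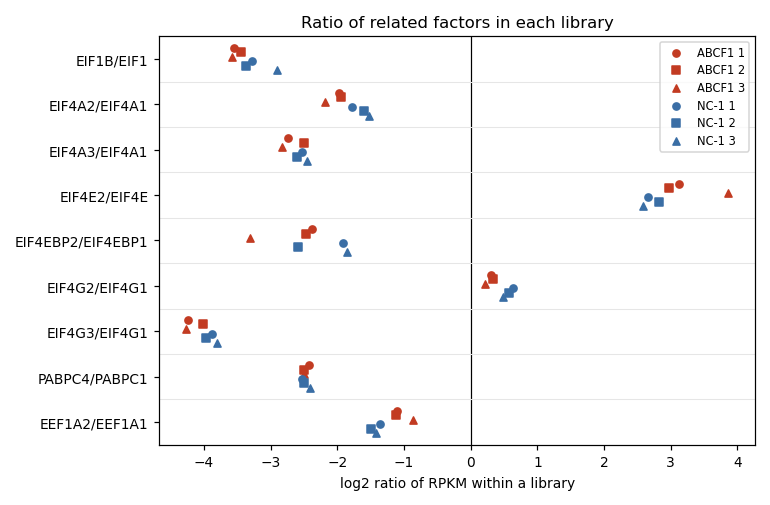
log2 ratio of RPKM of related translation factors within each library (x axis), red for libraries labelled ABCF1 and blue for NC-1. EEF1A2/EEF1A1 lies further right and EIF4A2/EIF4A1 and EIF4G2/EIF4G1 further left in every library labelled ABCF1, while PABPC4/PABPC1 overlaps.

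The fold changes of the members went with the composition of their transcripts. Over the 45 genes, Spearman's rho of the log2 fold change was 0.76 with the GC content and -0.58 with the length of the longest transcript, against 0.49 and -0.28 over 16357 tested genes. Genes share libraries and are not independent, so this is a description. The 18 members called higher with the library set had a median GC content of 53.1% and a median length of 2242.5 nucleotides, the 8 lower ones 42.4% and 6421 nucleotides, and all tested genes 49.2% and 3175 nucleotides. Relative to each gene's mean, rho with GC over all tested genes was 0.24 to 0.33 in the 3 libraries labelled ABCF1 and -0.31 to -0.20 in the 3 NC-1 libraries. Composition and label cannot be told apart in these libraries, and the offset removes any part of a difference that goes with length and GC content.

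**Figure D5:**
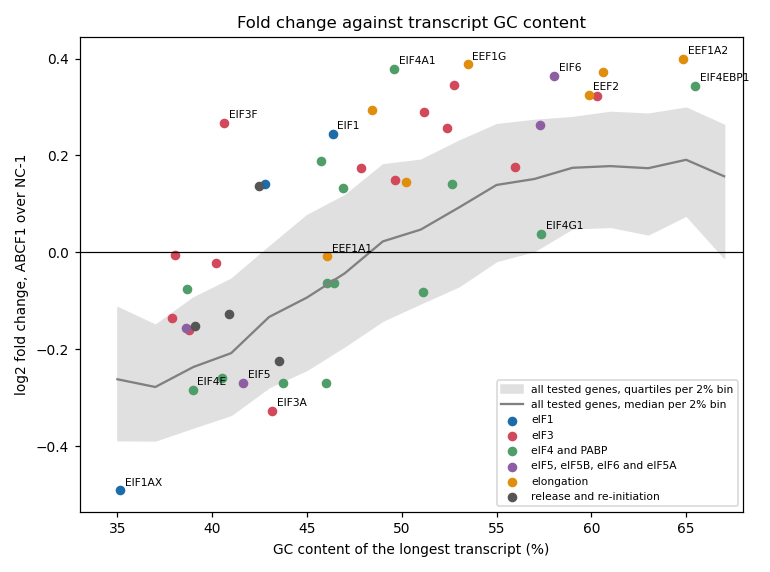
log2 fold change between the labelled groups (y axis) against GC content of the longest transcript (x axis, percent) for the 45 translation factors, coloured by role, over the quartiles and median of all tested genes in bins of 2%. Log2 fold changes are higher at higher GC content, with a Spearman's rho of 0.76 over the 45 factors and 0.49 over all tested genes.

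With the offset beside the library set, the 12 members still or newly called higher were EEF1A2 (0.28), EEF1G (0.29), EEF1D (0.24), EEF1B2 (0.23), EEF2 (0.20), EEF2K (0.20), EIF1 (0.27), EIF3F (0.51), EIF3K (0.19), EIF3M (0.24), EIF4A3 (0.26) and EIF4E2 (0.18). EIF1AX and EIF3A were still lower. Of the 18 higher calls without the offset 9 were shared, and of the 8 lower calls 2 were. The 7 elongation genes thus held 6 of the 12 higher calls. For EIF3F the offset raised the value from 0.27 to 0.51, and its longest annotated transcript, 7540 nucleotides, sets the length and GC used there. The same limit holds for other members, whose longest transcript was unlike the length implied by counts and RPKM. It was 3996 nucleotides against 1908 to 2005 implied for EEF1A2, and 3718 against 1279 to 1480 for EEF1D. For EIF4A2 it was 5327 against 2137 to 2298, and for MCTS1 1130 against 5773 to 7569.

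The deposited tables gave like values for most members. Counts and RPKM had the same sign of log2 fold change for 43 of 45, the exceptions being EIF3L and EIF4G1. The fits also differed in scaling, since only the counts carried TMM factors, and EIF4G1 was at -0.059 from counts scaled by library size only. The length implied by the count, the RPKM and the total count varied between libraries by a median of 1.07 times, and by 1.64 times for EIF3F, 1.55 for EIF1 and 1.53 for EIF4E. EIF3F, for example, was at 49.3 RPKM in ABCF1 replicate 1 and 83.8 RPKM in ABCF1 replicate 2, with 22821 and 25498 counts. The RPKM of these genes therefore differed between libraries in a way that the counts did not.

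Of 41 partners and modifiers of translation factors, 39 were tested, and edgeR called 0 between the labelled groups, with 2 above and 4 below NC-1 at p under 0.05 before adjustment, while DESeq2 called 3 lower and 0 higher. With the library set 5 were higher and 6 lower, and their median log2 fold change was -0.013. These counts of 39 are read against 6.27% of all genes higher and 8.54% lower before adjustment, 2.31% lower by DESeq2, and 12.9% higher and 12.5% lower with the library set, so the partners' share with the set was near that of all genes. PDCD4, an inhibitor of the eIF4A helicase, was at 133, 127 and 141 CPM in the libraries labelled ABCF1, against 178, 202 and 173 CPM in NC-1. The groups were clearly separate, with a log2 fold change of -0.46 (SE 0.10, edgeR adjusted p = 0.25) and, with the library set, -0.46 (edgeR adjusted p = 9.1e-04). It was still called lower with the offset (-0.25, edgeR adjusted p = 0.0087). RPS6KB1, an S6 kinase that acts downstream of mTOR, was at 20.2, 18.8 and 18.5 CPM in the libraries labelled ABCF1, against 24.1, 25.2 and 25.9 CPM in NC-1, with a log2 fold change of -0.39 (SE 0.09). DHX29, a helicase for structured leaders, was at 23.6, 24.2 and 20.4 CPM against 29.4, 29.8 and 30.4 CPM, a log2 fold change of -0.39 (SE 0.10). For both, every library labelled ABCF1 lay below NC-1. RPS6KB2, the other S6 kinase, was at 42.1, 39.7 and 53.8 CPM against 34.5, 37.4 and 36.4 CPM, with no overlap, and its log2 fold change of 0.32 (SE 0.13) was 0.19 without ABCF1 replicate 3. These 3 were called with the library set but not with the offset added, where RPS6KB1 was at -0.13, DHX29 at -0.20 and RPS6KB2 at 0.23 (edgeR adjusted p of 0.34, 0.12 and 0.051).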

How the data were processed

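RNA was sequenced from 3 libraries labelled ABCF1 and 3 labelled NC-1. The authors deposited raw read counts per gene and a second table of RPKM values, with the same 60612 genes in each. CASAVA 1.8, Trimmomatic, FastQC, HISAT2, StringTie, edgeR and GRCh38 are listed in the submitters' processing notes, with no role or order. No source used here gives the annotation release, the strand setting or the length behind the RPKM.

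From the deposited counts, edgeR 4.0.16 in R 4.3.3 was run with TMM factors, its default filter on low counts (16545 genes kept), the quasi-likelihood test and Benjamini-Hochberg adjustment over all tested genes, at a threshold of 0.05. Fold changes are ABCF1 over NC-1. The library set is the side of the first principal component of log2 CPM. The length and GC offset was the smooth trend of each library fitted with mgcv 1.9.3 on the longest GENCODE 29 transcript, known for 98.9% of tested genes. DESeq2 1.42.0 and limma 3.58.1, the latter on log2(RPKM + 1), were alternatives, and 21 other settings were run in all. The edgeR step was tested on simulated counts.

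The factors and lists were chosen with earlier results of these data known. Values in every library are given for ABCF1, for the 2 members of each role group with the highest mean RPKM, for up to 2 members a direction with the smallest p, and for up to 4 partners by smallest p. Replicate numbers did not pair the libraries (see the closing section), so no block was used. No library pair agreed within sampling noise.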

Additional observations from a re-analysis of the deposited data

How the results depend on the processing

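Between the labelled groups 0 genes were called, and leaving out any 1 library left 0 calls over all genes, members and partners. DESeq2 called 243 genes higher and 383 lower (members 1 and 2, partners 3 lower). The library set gave 2129 and 2064 (members 18 and 8, partners 5 and 6), the 4 libraries without ABCF1 replicate 3 and NC-1 replicate 2 gave 950 and 853 (members 15 and 5, partners 4 lower), and the library set with the length and GC offset gave 821 and 275 (members 12 and 2, partners 2 and 1). The cause of these differences was not tested.

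Same-numbered libraries correlated at 0.11, -0.11 and -0.15 in their deviations from the group means, so the numbers do not pair them. With the replicate block, 0 genes were called, also with the offset added, and the elongation median was 0.33.

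The median of eIF4 factors and poly(A)-binding proteins was -0.16 by library size only and on both RPKM scales, -0.0011 with the offset, 0.0023 with the library set and offset, 0.0038 with the replicate block and offset, and 0.0037 in the 4 libraries. Leaving out 1 library moved it between -0.089 and -0.013. The termination and re-initiation median was -0.24 by library size only, -0.26 on both RPKM scales, 0.073 with the offset, and 0.077 with the offset and either the library set or the replicate block. Leaving out 1 library moved the elongation median between 0.28 and 0.43, eIF3 between 0.14 and 0.20, eIF1 between 0.092 and 0.22, the eIF5 group between -0.036 and 0.17, and termination between -0.19 and -0.050.

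Of the values that changed sign, 29 were at least 1 SE from 0 before or after. EIF3L was -0.054 on both RPKM scales. EEF1A1 ran from -0.070 to 0.081 when 1 library was left out, the latter without NC-1 replicate 2, and was 0.051 in the 4 libraries and 0.074 with the library set and offset. With the offset alone, with the library set, and with the replicate block, in that order, EIF3E was 0.042, 0.042 and 0.042, EIF3H 0.17, 0.17 and 0.17, EIF3J 0.025, 0.026 and 0.026, EIF3M 0.25, 0.24 and 0.24, EIF4A2 0.17, 0.17 and 0.17, GSPT1 0.10, 0.11 and 0.11, and DENR 0.043, 0.046 and 0.046. EIF4E was 0.0042 with the library set and 0.0072 with the replicate block, each with the offset, and EIF5B was 0.090 with the library set and offset.

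Of 1050 values of single genes under 21 settings, 77 passed the threshold with the sign unchanged. EIF3M also passed it with the library set and offset (edgeR adjusted p = 0.036), with its sign changed. The sign changed in 62, in 15 of 50 genes, and in 33 of these both values were under 1 SE from 0. With 3 libraries a group, 62323034 to 77394510 counts each limit the precision less than the spread between libraries does.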
